A study of Mus musculus with 13 samples.

Results

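The nuclear genes for the subunits of oxidative phosphorylation were followed here as 84 members among the 54513 gene symbols counted. Members were chosen by symbol alone: Nduf followed by a, b, c, s or v and a digit for complex I, Sdha to Sdhd for complex II, Uqcr for complex III, Cox4 to Cox8 with a letter for complex IV, and Atp5 for complex V. Of 103 matching symbols, 13 carried the pseudogene mark -ps and 6 others did not exceed a raw sum of 130 counts over the 13 libraries. Those 6 were Ndufb4c (30 counts), Ndufs6b (25), Ndufa11b (19), Cox7b2 (1), Cox8c (0) and Ndufb11b (0), while the members just inside the limit were Cox6c2 with 244 counts and Cox6b2 with 770. The members comprise 38 genes of complex I, 4 of complex II, 8 of complex III, 17 of complex IV and 17 of complex V. The patterns do not take in Cyc1, which encodes cytochrome c1 of complex III, Ndufab1, a subunit gene of complex I, or subunits made from the mitochondrial genome.

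Total RNA came from 10 µm coronal slices of lungs stored as formalin-fixed paraffin blocks, taken from male mice of strain C57Bl/6, aged 7 to 8 weeks, at day 21 after bleomycin, a drug used to provoke lung fibrosis in mice, or saline. Saline gave 5 libraries (replicates 1 to 5, batch 1), and bleomycin gave 4 libraries in batch 1 (replicates 5 to 8) and 4 in batch 2 (replicates 1 to 4). The labels name no genetic change, and treatment was therefore compared within batch 1 while batch 2, which holds no saline library, is given beside it. The numbers that open the library names run in separate series for saline, batch 1 bleomycin and batch 2 bleomycin. Their meaning is not given in the sources used here, and any set of samples that they mark cannot be told apart from treatment in batch 1. Bleomycin replicate 8 is titled as a control, whereas its treatment field and library name give bleomycin. It was kept as bleomycin, and counts are given with and without it. Apart from replicate numbers no label ties a library to its own animal, so the p-values describe the spread among these libraries, which may be partly technical. Libraries held 6337147 to 28885129 counts, of which the members took 19119 to 107651 (0.274% to 0.495%). Lung markers were abundant in every library, with 3453 to 9758 CPM (counts scaled to a common library total by TMM) summed over 7 genes of alveolar type 2 cells.

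The respiratory chain of the inner mitochondrial membrane passes electrons from NADH (complex I) or succinate (complex II) through ubiquinone to complex III, from there by cytochrome c to complex IV and finally to oxygen. Complexes I, III and IV pump protons, and complex V, the ATP synthase, lets them flow back and makes ATP. Most subunits are encoded in the nucleus and a few core ones in the mitochondrial genome, and cells of the lung with a high energy demand, such as ciliated and alveolar type 2 cells, are rich in mitochondria.

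Few nuclear subunit genes differed between bleomycin and saline lungs. In batch 1, Uqcrc1, a core protein of complex III, was the 1 member that rose. The 4 that fell were Uqcrh (complex III), Atp5e (complex V), Ndufb5 and Ndufa6 (complex I), and the fitted changes of all 5 lay between -0.41 and 0.50 on the log2 scale. These 5 are 5.95% of the 84 members, where 30.9% of the 20468 genes tested passed the same threshold (17.5% higher and 13.4% lower), an adjusted p under 0.05 by edgeR's quasi-likelihood test. At an unadjusted p under 0.05 there were 16 members, 3 higher and 13 lower, where 41.5% of all genes tested were under it. DESeq2 called 10 members (33.9% of all genes) and limma-voom 6 (34.9%). Without bleomycin replicate 8 no member passed, where 26.6% of all genes did (0 of 84, with 10 at an unadjusted p under 0.05, where 38.8% of all genes were). The same was true without bleomycin replicate 6 (0 of 84, where 24.9% of all genes passed, and 11 unadjusted, where 37.3% were). In whole-lung RNA, fewer cells of a type and less RNA per cell cannot be told apart.

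The fitted changes of the members were small and leaned below zero. Their median log2 change was -0.12 (-0.20 to -0.04 over 25 alternative fits), beside 0.03 over all genes tested, with 54 members below zero and 30 above. The 95% interval of the change lay within a 2-fold change in either direction for 80 of 84 members and within 1.5-fold for 53. The 4 with wider intervals were Cox6a2, Cox7a1 and Cox8b, the muscle forms of complex IV subunits, and the low-count gene Cox6c2. All 4 batch 1 bleomycin libraries were below all 5 saline libraries for 2 members, Ndufa6 and Ndufa7 (the latter named after its values were seen), and above them for 0, whereas the groups did not overlap for 25.3% of all genes tested.

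**Figure D1:**
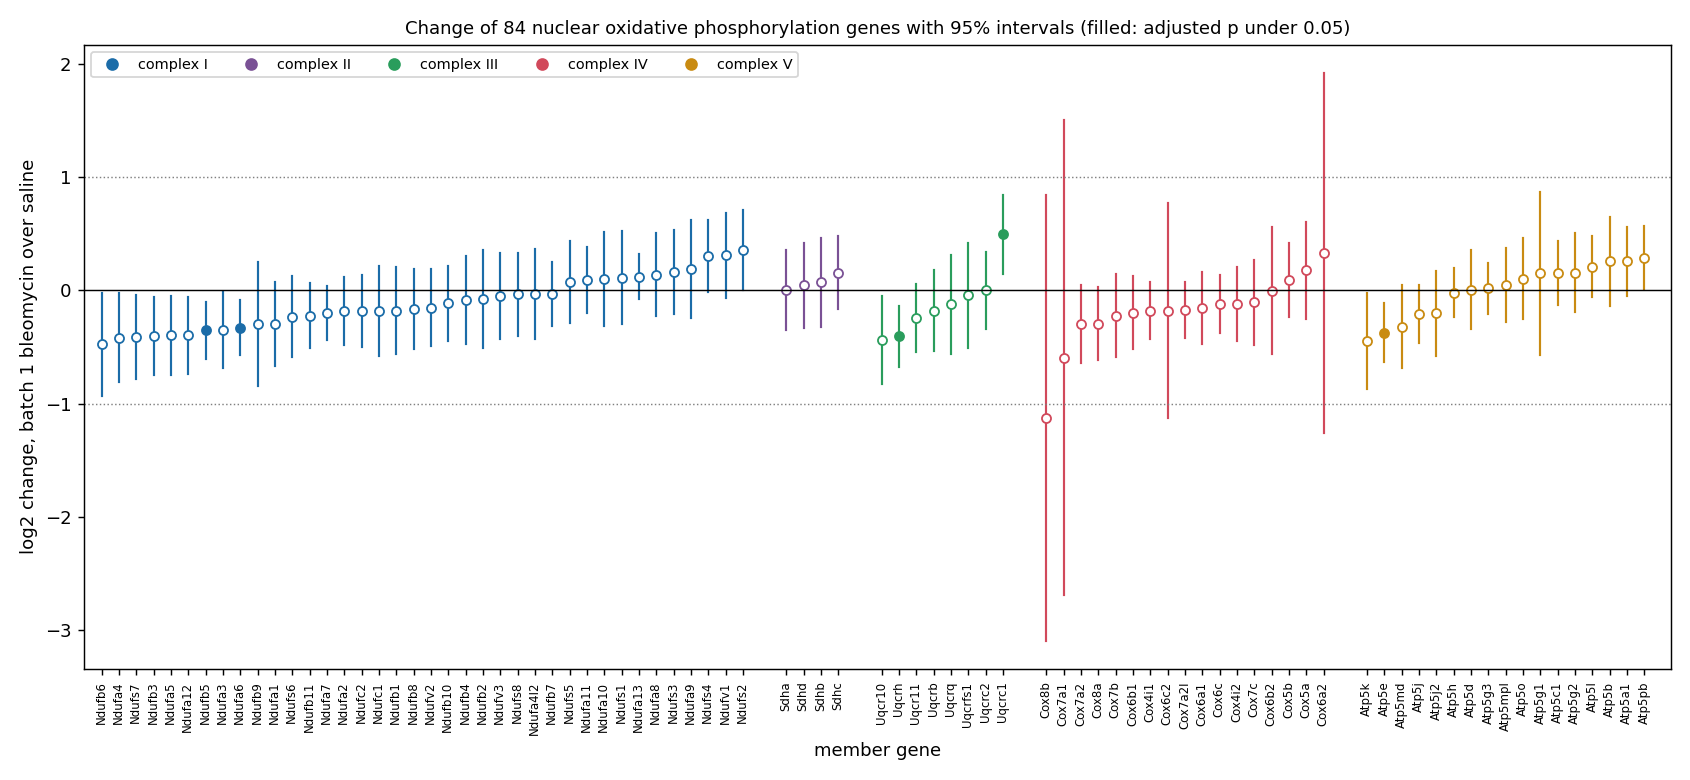
Log2 change of each of the 84 members in batch 1 bleomycin over saline (points, filled where the adjusted p is under 0.05), with its 95% interval (lines) and dotted lines at a 2-fold change. The intervals of 80 members lie between the dotted lines, and the muscle forms Cox6a2, Cox7a1 and Cox8b have the widest ones.

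The summed level of all members did not separate the groups. In saline replicates 1 to 5 the sum was 3815, 3635, 2986, 4367 and 3029 CPM (mean 3566 ± 577 SD, n = 5). Bleomycin replicates 5 to 8 held 4435, 3265, 3219 and 3216 CPM (3534 ± 601, n = 4), and replicates 1 to 4 of batch 2 held 3175, 4064, 3327 and 3270.5 CPM (3459 ± 408, n = 4). The groups overlapped, and the highest libraries were bleomycin 5, saline 4 and bleomycin 2, 1 in each group. These 3 libraries had the highest level of their own group for 61, 55 and 64 of the 84 members. The same libraries held the most heart muscle marker RNA of their groups (sums over 15 genes of 5991, 1711 and 3747 CPM, against 851 to 2112, 996 to 1518 and 141 to 1920 CPM in the others). The part of that RNA in the members' levels was not tested beyond leaving libraries out. Without bleomycin 5, 12 members passed, all lower, where 31.6% of 20576 genes did, and Uqcrc1 did not pass (0.38, adjusted p = 0.0945). Without both bleomycin 5 and saline 4, 10 passed, 1 higher and 9 lower, where 29.5% of 19997 genes did. The 1 higher was Uqcrc1 (0.48, adjusted p = 0.0247).

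**Figure D2:**
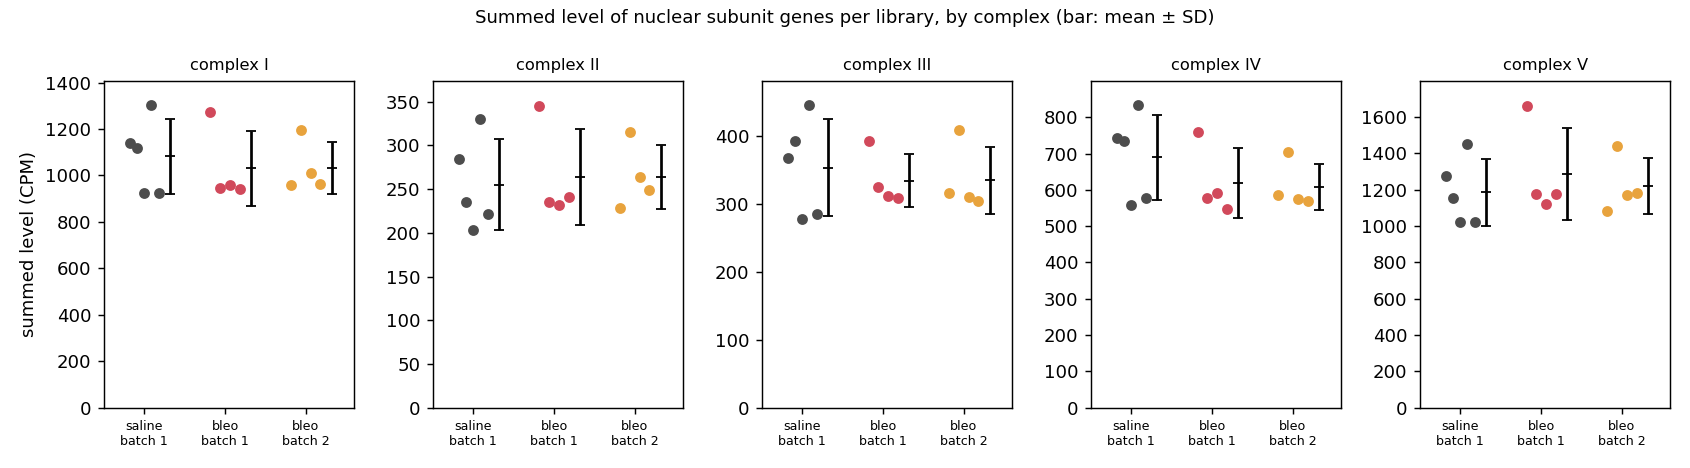
Summed level (CPM) of the nuclear subunit genes of each complex in every library (points), with mean and SD (bars), for saline, batch 1 bleomycin and batch 2 bleomycin. The groups overlap in all 5 complexes, and bleomycin 5, saline 4 and bleomycin 2 are the highest points of their groups.

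Complex I takes electrons from NADH and is built from a conserved core and many accessory subunits. Of its 38 nuclear members, 0 rose and 2 fell in batch 1 bleomycin, both of them among the 31 accessory genes, and the median log2 change was -0.16. The 7 nuclear core genes had a median of 0.11, which was below zero in 2 of 25 alternative fits (-0.11 without bleomycin 5), and the accessory genes one of -0.18, below zero in all 25. No core gene passed by edgeR (2 at an unadjusted p under 0.05, in opposite directions), while DESeq2 placed 6 genes of the complex lower, the core gene Ndufs7 among them (named after its values were seen), and limma-voom 3, none of them core.

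Ndufb5, an accessory subunit of the membrane arm, stood at 40.1, 36.9, 38.9, 37.7 and 34.1 CPM in saline replicates 1 to 5. It was at 33, 25.3, 34.4 and 25.1 CPM in bleomycin replicates 5 to 8 and at 26.2, 29.7, 26.5 and 23.6 CPM in batch 2. A single batch 1 bleomycin library, replicate 7, reached into the saline range, and every batch 2 library was below it. The fitted change was -0.35 (SE 0.12, adjusted p = 0.0343). Ndufa6, an accessory subunit of the LYR family at the matrix arm, was at 48.2, 50.4, 39.1, 45.8 and 40.9 CPM in saline and at 38.4, 36.5, 35.2 and 32.8 CPM in batch 1 bleomycin, without overlap. Batch 2 gave 40.0, 38.3, 36.9 and 28.6 CPM, and its replicate 1 lay within the saline range. Here the change was -0.33 (SE 0.11, adjusted p = 0.038). Ndufa7, also an accessory subunit, was likewise below all saline libraries (18.5 to 23.2 against 23.5 to 26.8 CPM), but its change of -0.20 did not pass (adjusted p = 0.187). Among the other named members, Ndufb3 (-0.40, adjusted p = 0.0713) and Ndufa12 (-0.39, 0.0733) did not pass. The same holds for Ndufb10 (50.3 ± 5.78 CPM in saline and 46.5 ± 13.2 in batch 1 bleomycin, -0.11, 0.615), in which bleomycin 5 stood alone at 66.2 CPM.

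The windows around the start sites of Ndufa6 and Ndufb5 are shown because these are the accessory genes that passed. They are 300-base RefSeq windows on GRCm38.p6, not the mm39 build of the counts: chr15:82354242-82354541 on the reverse strand and chr3:32736813-32737112 on the forward strand. Each was searched on both strands for 4 motifs often found in promoters of mitochondrial protein genes or of genes in general: GCATGCGC (the core bound by nuclear respiratory factor 1), CCGGAAG (ETS factors), AAGATGGC (YY1) and TATAAA, the classical box just upstream of many tissue-restricted genes. Capitals mark a match in either orientation.
Ndufa6: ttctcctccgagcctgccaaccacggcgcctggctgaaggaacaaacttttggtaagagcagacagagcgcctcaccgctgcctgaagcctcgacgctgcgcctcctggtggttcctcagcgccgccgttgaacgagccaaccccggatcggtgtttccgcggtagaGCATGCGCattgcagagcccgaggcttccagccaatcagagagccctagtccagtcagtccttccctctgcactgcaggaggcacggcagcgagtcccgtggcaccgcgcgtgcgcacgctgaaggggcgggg
Ndufb5: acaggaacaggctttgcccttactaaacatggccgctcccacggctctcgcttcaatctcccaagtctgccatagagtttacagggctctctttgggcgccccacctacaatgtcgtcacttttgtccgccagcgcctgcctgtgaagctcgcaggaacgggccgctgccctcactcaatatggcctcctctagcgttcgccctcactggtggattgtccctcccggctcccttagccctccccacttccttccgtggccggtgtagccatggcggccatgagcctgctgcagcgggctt
Ndufa6 holds the nuclear respiratory factor 1 core, and the Ndufb5 window holds none of the 4 motifs.

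Ndufa4 and Ndufa4l2 are grouped with complex I by their symbols, although the NDUFA4 protein is known as a subunit of complex IV. Ndufa4 was at 37.3 ± 8.96 CPM in saline and 27.9 ± 6.73 in batch 1 bleomycin (-0.42, SE 0.18, adjusted p = 0.0979), and its paralogue Ndufa4l2, known as hypoxia-inducible, at 11.7 ± 2.19 and 11.5 ± 1.66 CPM (-0.03, 0.914). Per kilobase of transcript, Ndufa4l2 made up 17.6% ± 4.91 of the pair in saline, 21.5% ± 3.58 in batch 1 bleomycin and 18.2% ± 4.09 in batch 2, with overlapping ranges. Ndufs5 is uncertain, because the near-copy Ndufs5-ps took 639 counts beside its 3240 and how reads were shared between copies is not given in the sources used here.

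Complex II, succinate dehydrogenase, is the 1 complex made by nuclear genes alone and also works in the citric acid cycle. None of its 4 genes passed by edgeR, DESeq2 or limma-voom (0 at an unadjusted p under 0.05), and their median log2 change was 0.06, with a range of -0.09 (without bleomycin 5) to 0.12 over 25 alternative fits, 4 of them below zero. Sdha, the flavoprotein that oxidises succinate, was at 156, 126, 118, 185 and 127 CPM in saline and at 196, 116, 120.4 and 139 CPM in batch 1 bleomycin. Its batch 2 levels were 133, 183, 158 and 145 CPM. All 3 groups overlapped, and the change was 0.00 (95% interval -0.35 to 0.36). The iron-sulfur subunit Sdhb (0.07, adjusted p = 0.808) and the membrane anchors Sdhc (0.16, 0.468) and Sdhd (0.04, 0.88) had intervals within a 2-fold change as well.

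Complex III passes electrons from ubiquinol to cytochrome c. Of its 8 members 1 rose and 1 fell, 25% where 30.9% of all genes tested passed. The median log2 change was -0.15, with 7 of 8 members below zero, and it was below zero in 24 of 25 alternative fits. Uqcrc1, a core protein, was at 61.2, 48.6, 44.1, 70.5 and 42.4 CPM in saline. It was at 92.3, 71.8, 58.5 and 78.6 CPM in batch 1 bleomycin and at 74.7, 89.2, 64.7 and 64.1 CPM in batch 2. Bleomycin replicate 7 and saline 1 and 4 made the batch 1 groups overlap, and the change was 0.50 (SE 0.16, adjusted p = 0.0315). Uqcrh, the hinge protein that helps cytochrome c dock, was at 87.9, 114, 75.2, 104 and 73.8 CPM in saline. Levels of 68.1, 69.3, 77.7 and 59.1 CPM were found in batch 1 bleomycin, and of 61.4, 76.6, 67.1 and 68.7 CPM in batch 2. Only bleomycin replicate 7 in batch 1 and replicate 2 in batch 2 reached the lowest saline levels, and the change was -0.41 (SE 0.13, adjusted p = 0.024). The other core protein Uqcrc2 (0.00, adjusted p = 0.999) and the Rieske iron-sulfur protein Uqcrfs1 (-0.04, 0.901) did not pass. Of the small subunits, Uqcr10 (20.3 ± 3.49 and 14.9 ± 2.78 CPM, -0.44, adjusted p = 0.0798), Uqcr11 (-0.25, 0.201) and Uqcrq (-0.12, 0.687) did not pass either. DESeq2 placed Uqcr10 lower too.

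The start-site windows of these 2 genes are shown because they went in opposite directions within 1 complex. On GRCm38.p6 they are chr9:108936398-108936697 on the forward strand and chr4:116075021-116075320 on the reverse strand, with motif matches in capitals.
Uqcrc1: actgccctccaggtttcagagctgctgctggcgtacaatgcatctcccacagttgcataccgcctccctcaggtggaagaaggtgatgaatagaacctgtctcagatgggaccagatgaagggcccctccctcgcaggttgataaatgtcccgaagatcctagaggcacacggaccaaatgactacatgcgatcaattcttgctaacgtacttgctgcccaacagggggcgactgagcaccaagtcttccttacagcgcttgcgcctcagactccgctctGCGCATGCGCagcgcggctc
Uqcrh: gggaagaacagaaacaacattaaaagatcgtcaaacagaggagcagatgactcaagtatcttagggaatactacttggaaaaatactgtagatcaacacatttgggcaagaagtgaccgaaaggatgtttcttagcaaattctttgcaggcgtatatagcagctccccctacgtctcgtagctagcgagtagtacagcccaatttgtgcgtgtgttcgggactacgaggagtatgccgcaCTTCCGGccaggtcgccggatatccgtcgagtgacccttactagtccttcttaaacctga
Uqcrc1 holds the nuclear respiratory factor 1 core in both orientations, overlapping in 1 run, and Uqcrh holds an ETS match on the opposite strand.

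Complex IV, cytochrome c oxidase, reduces oxygen, and several of its subunits exist in forms made by different tissues. None of its 17 members passed by edgeR (0 at an unadjusted p under 0.05), by DESeq2 (0, with 1 unadjusted) or by limma-voom (0, with 1 unadjusted), and the median log2 change was -0.18, with 14 of 17 below zero. Per kilobase of transcript Cox6c was the most abundant of all members, at 221 ± 28.9 CPM per kb in saline, 203 ± 37.1 in batch 1 bleomycin and 214 ± 21.6 in batch 2. Cox4i1, the regulatory subunit that binds ATP, followed in this complex at 151 ± 25.6, 133 ± 16.4 and 147 ± 10.8 CPM per kb. Their CPM ranges overlapped between groups, at 96.2 to 135 in saline and 88.9 to 130 in batch 1 bleomycin for Cox6c, and their changes were -0.12 (adjusted p = 0.485) and -0.18 (0.275). Cox8a (-0.29, adjusted p = 0.154) and Cox7a2 (-0.30, 0.178) had the lowest p-values in the complex, and Cox7a2 passed without bleomycin 5. Cox7a2l, known for its role in joining complexes III and IV into supercomplexes, was at 49.8 ± 5.20 and 44.0 ± 6.53 CPM (-0.18, adjusted p = 0.275).

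The muscle forms of complex IV varied far more among libraries than the other members. Cox8b was at 22.2, 15.8, 4.16, 37.3 and 7.06 CPM in saline, at 21.0, 2.78, 4.25 and 3.74 CPM in batch 1 bleomycin and at 0, 8.16, 4.56 and 3.81 CPM in batch 2. For Cox7a1 the levels were 10.4, 9.28, 4.23, 15.6 and 2.06 CPM in saline, 16.0, 1.94, 2.36 and 1.79 CPM in batch 1 bleomycin, and 0, 9.59, 2.45 and 2.34 CPM in batch 2. Cox6a2 was at 24.9, 6.96, 12.3, 22.0 and 10.4 CPM in saline, at 50.8, 7.71, 8.27 and 11.1 CPM in batch 1 bleomycin, and at 1.33, 17.3, 6.26 and 11.1 CPM in batch 2. Within each bleomycin batch the same library was highest for all 3 genes, bleomycin 5 and bleomycin 2, and bleomycin 1 had 0 counts of Cox8b and Cox7a1, where 3 counts would be 0.497 CPM. Their changes had wide intervals: -1.12 (-3.09 to 0.85) for Cox8b, -0.59 (-2.69 to 1.5) for Cox7a1 and 0.33 (-1.25 to 1.92) for Cox6a2, so changes of 2-fold in either direction were within reach for Cox7a1 and Cox6a2.

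Marker RNA of muscle varied along with these genes in some libraries but not in others. The 15 heart muscle markers summed to 5991 CPM in bleomycin 5, 3747 CPM in bleomycin 2 and 141 CPM in bleomycin 1, the highest and the lowest of the 13 libraries being bleomycin 5 and bleomycin 1. Bleomycin 8 held a heart sum of 2112 CPM, against 862 and 851 CPM in bleomycin 6 and 7. Cox8b in these libraries was at 3.74, 2.78 and 4.25 CPM. The skeletal muscle sum of bleomycin 8, 614 CPM, was above the 284 CPM of bleomycin 5, where Cox8b was at 21.0 CPM. The 8 skeletal muscle markers summed to 3064 and 1995 CPM in saline 4 and saline 1, which held the most Cox8b among saline libraries, but to 16.8 CPM in saline 2, where Cox8b was at 15.8 CPM. Marker RNA of fat, a tissue whose brown form is rich in mitochondria, varied among these libraries too. Its 6 genes summed to 152, 144, 45.7, 323 and 44.1 CPM in saline 1 to 5, and the 3 libraries with the highest sums were also the 3 highest in Cox8b and Cox7a1. Ucp1, the uncoupling protein of brown fat, was at 45.3, 45.9, 0, 125 and 0.294 CPM there. In batch 1 bleomycin the fat sums were 85.7, 21.5, 45.7 and 88.6 CPM, and bleomycin 8 held as much as bleomycin 5 but 3.74 CPM of Cox8b. No marker of either muscle list was at 0 in all libraries, and 3 of the 8 skeletal markers were at 0 in some. The part of muscle and fat RNA in the levels of these genes was not tested. Per kilobase, the muscle form held 10.2% to 32.4% of the Cox6a1 and Cox6a2 pair in saline and 14.2% to 52.2% in batch 1 bleomycin. For Cox7a1 beside Cox7a2 these ranges were 10.6% to 43.6% and 13.3% to 43.4%, and for Cox8b beside Cox8a 11.6% to 43.3% and 6.79% to 42.4%.

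**Figure D3:**
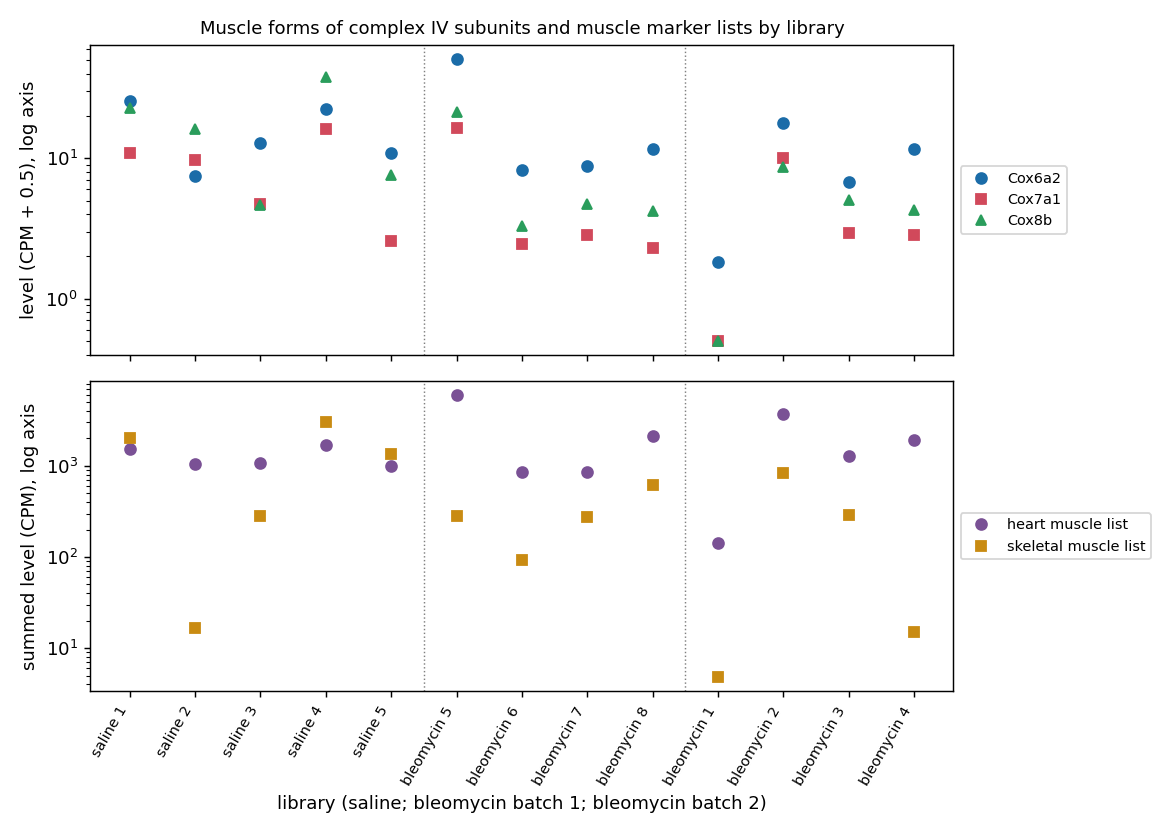
Level of the muscle forms Cox6a2, Cox7a1 and Cox8b (upper panel, CPM + 0.5, log axis) and summed level of the heart and skeletal muscle marker lists (lower panel, CPM, log axis) in each library. Bleomycin 5 is the highest and bleomycin 1 the lowest of the bleomycin libraries for all 3 genes and for the heart list.

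The Cox8b window is shown as an example of the muscle forms, whose levels varied widely among libraries. It is chr7:140900397-140900696 on the reverse strand of GRCm38.p6, with the match to the classical box in capitals.
Cox8b: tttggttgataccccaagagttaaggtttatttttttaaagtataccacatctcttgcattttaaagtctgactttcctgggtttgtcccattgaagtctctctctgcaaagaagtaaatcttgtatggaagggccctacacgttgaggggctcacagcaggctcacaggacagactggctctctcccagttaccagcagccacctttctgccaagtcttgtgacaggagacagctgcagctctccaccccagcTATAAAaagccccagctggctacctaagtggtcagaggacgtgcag
Cox8b was the 1 complex IV member among 12 with a window that holds this motif.

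For other tissue-restricted forms the shares overlapped between the batch 1 groups. Cox4i2, a form known from lung, made up 19.7% ± 3.86 of the Cox4i1 and Cox4i2 pair per kilobase in saline, 20% ± 4.30 in batch 1 bleomycin and 19.3% ± 2.89 in batch 2, and its level did not pass (26.4 ± 2.94 and 24.3 ± 5.82 CPM, adjusted p = 0.592). Cox6b2, the testis form of Cox6b1, held 7.53% ± 2.01 and 8.49% ± 2.24 of its pair in batch 1 and 12.5% ± 1.11 in batch 2, where all 4 libraries (11.6% to 14.0%) were above all saline libraries (5.80% to 9.78%). Batch and treatment cannot be told apart in that last difference. The batch 1 bleomycin libraries, of the same treatment as batch 2, held 6.18% to 11.2%, also below all 4 of batch 2. This difference in share was not tested. Between the bleomycin batches alone, the level of Cox6b2 did not pass (0.47, adjusted p = 0.49).

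Complex V makes ATP with a catalytic F1 head and a membrane part that includes a ring of c subunits. Of its 17 members 0 rose and 1 fell, with a median log2 change of 0.05 that ran from -0.10 (without bleomycin 5) to 0.14 over 25 alternative fits and was below zero in 6. Atp5e, the epsilon subunit of the central stalk, was at 37.0, 42.0, 31.9, 42.4 and 29.1 CPM in saline and at 31.8, 26.8, 27.6 and 26.2 CPM in batch 1 bleomycin. In batch 2 it was at 32.9, 32.6, 32.1 and 36.9 CPM, inside the saline range. In batch 1 only bleomycin 5 was above the lowest saline library, and the change was -0.38 (SE 0.12, adjusted p = 0.0288). Without the batch term, which adds the batch 2 libraries to the bleomycin side, the change was -0.24 and did not pass (adjusted p = 0.11). With the replicate number as a block it was -0.12 (adjusted p = 0.485), although the numbers did not pair the libraries.

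The Atp5e window is shown as that of the 1 complex V gene that passed, with its ETS match, on the opposite strand, in capitals. It is chr2:174464052-174464351 on the reverse strand of GRCm38.p6.
Atp5e: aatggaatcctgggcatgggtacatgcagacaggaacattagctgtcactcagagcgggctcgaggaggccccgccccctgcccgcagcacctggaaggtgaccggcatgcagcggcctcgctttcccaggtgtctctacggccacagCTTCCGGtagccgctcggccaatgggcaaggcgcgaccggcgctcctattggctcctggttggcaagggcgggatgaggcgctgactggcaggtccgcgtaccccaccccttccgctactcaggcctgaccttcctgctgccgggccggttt
Among the 68 members with a RefSeq window, 25% held the ETS motif, 14.7% the nuclear respiratory factor 1 core, 14.7% the YY1 motif and 10.3% the classical box. Over all 27025 genes with a window the shares were 9.93%, 3.05%, 3.19% and 15.7%, and over the 12737 of them that were tested 17.1%, 5.10%, 4.53% and 10.2%. Such a match describes letters in the window and not a bound site.

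The catalytic subunits were the most abundant of complex V. Atp5b, the beta subunit, was at 287, 243, 224, 360.1 and 210.3 CPM in saline and at 437, 279, 251 and 298 CPM in batch 1 bleomycin, and Atp5a1, the alpha subunit, at 274, 232, 214, 299 and 217 and at 389, 259, 252 and 281 CPM. Both overlapped between the groups, with changes of 0.26 (adjusted p = 0.312) and 0.26 (0.191). Per kilobase they averaged 150.3 and 111 CPM per kb over all libraries. Atp5pb, subunit b of the peripheral stalk, was at 62.7 ± 9.45 and 76.5 ± 16.6 CPM (0.29, adjusted p = 0.111) and passed in 0 of 25 alternative fits. Below zero but not past the threshold were Atp5k, subunit e (-0.45, adjusted p = 0.101), and Atp5md (-0.32, 0.176). The 3 genes for the c ring encode the same mature protein, and Atp5g3 held 56.0% ± 2.66 of their summed level per kilobase in saline, 53.7% ± 4.45 in batch 1 bleomycin and 54.7% ± 2.93 in batch 2. Their changes were 0.15 (Atp5g1), 0.15 (Atp5g2) and 0.02 (Atp5g3), and bleomycin 5 stood apart for Atp5g1 at 31.6 CPM against 11.5 to 13.2 CPM in the other libraries of its group.

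**Figure D4:**
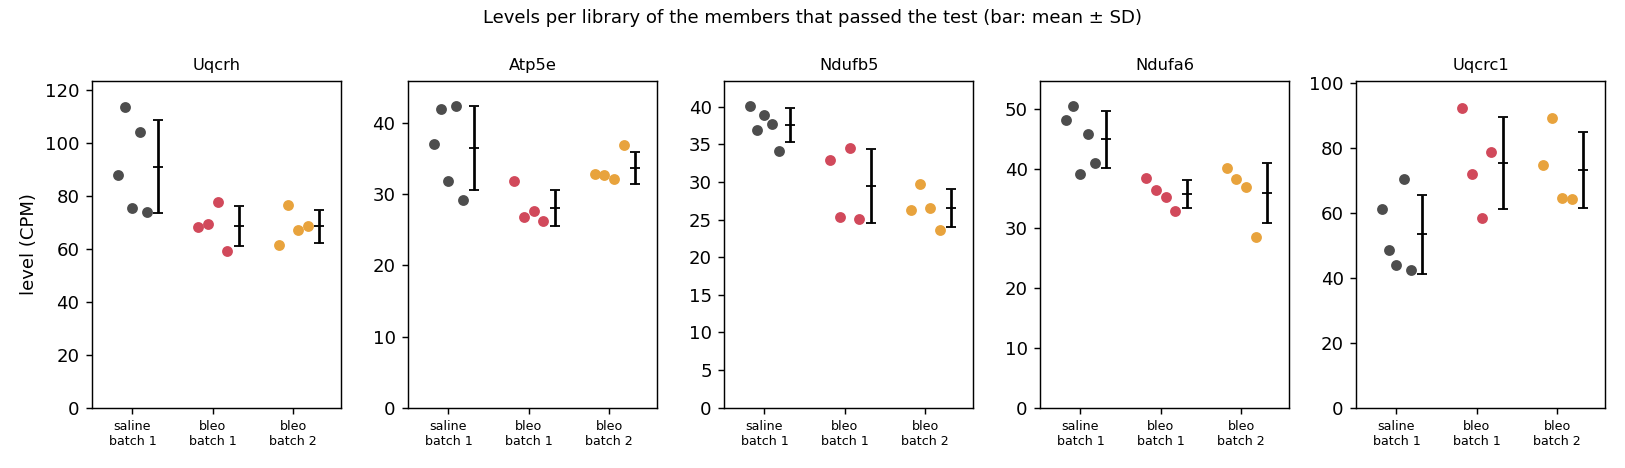
Level (CPM) of the 5 members that passed the test in each library (points), with mean and SD (bars), for saline, batch 1 bleomycin and batch 2 bleomycin. Uqcrc1 is higher in batch 1 bleomycin (75.3 ± 14.1 CPM) than in saline (53.3 ± 12.1 CPM), the other 4 are lower, and the batch 2 levels of Atp5e (32.1 to 36.9 CPM) lie inside its saline range.

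The 5 calls rested on differences near the threshold. Each kept its direction in all 25 alternative fits, but passed in 22 of them for Uqcrh, 20 for Ndufb5 and 17 each for Atp5e, Ndufa6 and Uqcrc1. Every one of the 5 lost its call without bleomycin 6 (adjusted p = 0.0504 to 0.112) and without bleomycin 8 (0.0504 to 0.0921). Uqcrc1 also lost it in batch 1 alone (0.0581) and without bleomycin 5 (0.0945), saline 2 (0.0904), saline 3 (0.077) or saline 5 (0.0713). Atp5e did so without bleomycin 7 (0.0661), saline 1 (0.05004) or saline 4 (0.0503), Ndufb5 without saline 1 (0.0699) or saline 3 (0.0621), and Ndufa6 without bleomycin 2 (0.0524), bleomycin 7 (0.0833), saline 1 (0.0781) or saline 2 (0.0589).

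Transcript length went along with the fitted changes. The 57 members with a transcript under 1 kb had a median log2 change of -0.18 (0 higher, 3 lower), the 21 members of 1 to 2 kb one of 0.07 and the 5 members over 2 kb one of 0.11. All tested protein-coding genes of these length classes had medians of -0.10 (992 genes), 0.09 (3384) and 0.07 (10438). Across the 83 members with a known length, log2 length and log2 change had a Pearson correlation of 0.52 and a Spearman correlation of 0.49, as a description, since these genes share their libraries. Uqcrh, Atp5e and Ndufa6 (547, 421 and 590 nt) were in the shortest class, and Uqcrc1 (1653 nt) and Ndufb5 (1079 nt) in the middle one. The part of length in the members' changes was not tested.

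**Figure D5:**
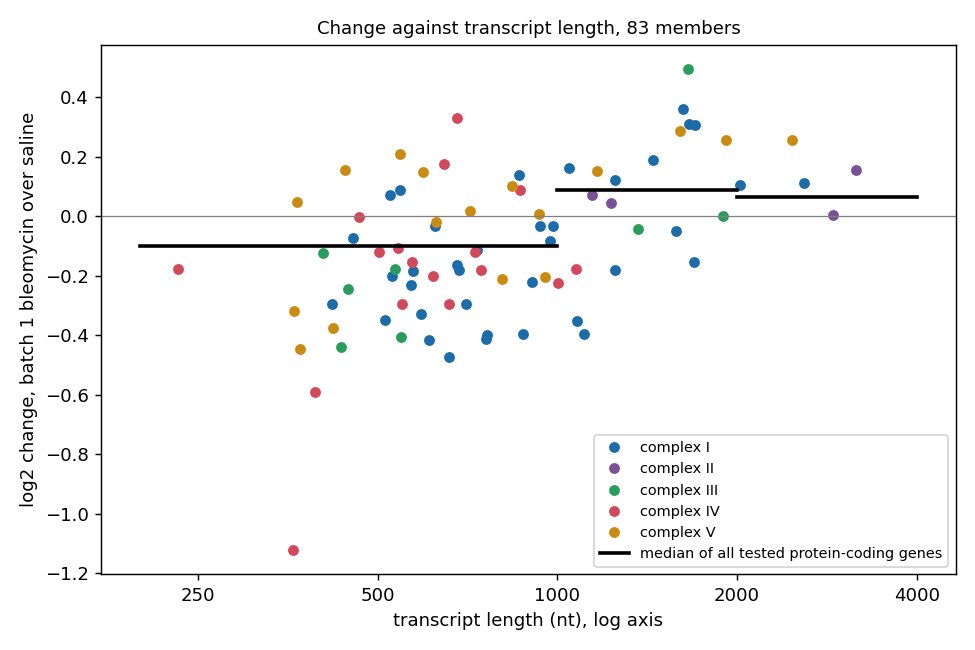
Log2 change in batch 1 bleomycin over saline against transcript length (nt, log axis) for 83 members, coloured by complex, with black lines at the median of all tested protein-coding genes of each length class. Members under 1 kb lie mostly below zero (44 of 57), and all 5 over 2 kb lie above it.

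Between the bleomycin batches the share of members called was near that of all genes tested. Between batch 2 and batch 1 bleomycin 0 members were higher and 1 lower, 1.19% of the members where 1.68% of all genes tested passed. The 1 member was Cox6c2, annotated in GENCODE M21 as a processed pseudogene and a near-copy of Cox6c. It had 34, 44, 28 and 19 counts in bleomycin replicates 5 to 8 and 2, 2, 2 and 1 counts in replicates 1 to 4, a level ratio of 0.167 (95% interval 0.066 to 0.355, counting error only), and the fitted change was -2.50 (adjusted p = 0.0443). The call was lost by limma-voom, with bleomycin libraries only, with no filter on low counts, with halved counts and without any 1 of bleomycin 2 to 7 or saline 1, 3 or 5. Its level is uncertain, since reads of Cox6c may be counted to it or the reverse. At an unadjusted p under 0.05 there were 5 members, where 14.6% of all genes tested were under it. Of these, Atp5l, subunit g of complex V, had the next lowest p (38.3 ± 6.19 CPM in batch 1, 26.5 ± 3.57 in batch 2, change -0.53, adjusted p = 0.069, named after its values were seen). It was called lower by DESeq2, with no filter on low counts and without bleomycin 8. Beside saline, the batch 2 means had a median log2 ratio of -0.12, with 59 members below zero and 25 above. Over all genes tested this median was -0.015, with 10452 below zero and 10016 above. No test was made, since treatment and batch cannot be told apart there.

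Few genes that build or serve the complexes passed in batch 1, where 17.5% of all genes tested were higher and 13.4% lower by edgeR. Among assembly factors, 0 of 17 for complex I, 0 of 6 for complex III and 0 of 4 for complex V passed by edgeR, DESeq2 or limma-voom (2, 0 and 0 at an unadjusted p under 0.05 in edgeR). The 17 include Ndufab1, itself a subunit gene of complex I. Of 22 tested factors for complex IV, 0 rose and 2 fell: Sco2, which delivers copper (3.24 ± 0.82 to 1.13 ± 0.13 CPM, -1.52, SE 0.33, adjusted p = 0.00253), and Pet100 (21.7 ± 2.13 to 15.4 ± 3.83 CPM, -0.49, SE 0.17, 0.0367). For complex II 1 of 4 rose, Sdhaf2, which attaches the flavin to Sdha (21.5 ± 1.53 to 29.2 ± 4.38 CPM, 0.44, SE 0.12, adjusted p = 0.00945). Among 13 regulators of mitochondrial gene expression 1 rose and 0 fell, the coactivator gene Pprc1 (32.9 ± 4.60 to 50.9 ± 4.10 CPM, 0.63, SE 0.12, adjusted p = 0.00134). In the list of import, carrier and chaperone genes 3 of 18 rose, near the share of all genes tested that rose, and 0 fell. The 3 were Tomm40, the outer membrane import pore (0.67, SE 0.16, adjusted p = 0.00533), and the carriers of ADP and ATP, Slc25a5 (0.36, 0.02), and of phosphate, Slc25a3 (0.30, 0.047, named after its values were seen).

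Other mitochondrial lists gave 0 of 17 genes for pyruvate dehydrogenase and the citric acid cycle and 0 of 14 for fatty acid oxidation by all 3 tools (1 each at an unadjusted p under 0.05 in edgeR). Of all genes tested 30.9% passed by edgeR, 33.9% by DESeq2 and 34.9% by limma-voom. In the list for cytochrome c and coenzyme Q synthesis 1 of 12 rose (Coq8b, 0.49, SE 0.15, adjusted p = 0.0198), and among 77 tested mitochondrial ribosomal protein genes 1 rose (Mrpl37, 0.39, SE 0.12, 0.0175) and 0 fell. Of the 13 subunits encoded by the mitochondrial genome, edgeR called 5 lower by treatment (median -0.86) and 5 lower by batch (median -0.81). DESeq2 called 6 and 5 lower, and limma-voom 6 and 0. By edgeR 13.4% of all genes tested were lower by treatment, and 1.68% were called by batch in either direction. The level of mt-Atp6, a complex V subunit, was 93.7 ± 41.2 CPM in saline, 27.9 ± 8.82 in batch 1 bleomycin and 0.817 ± 0.229 in batch 2. This gene had the lowest treatment p of the 13, and its batch change of -5.05 was far beyond their median. It was not alone in this: mt-Nd4l (-5.07), mt-Co2 (-5.40), mt-Co3 (-5.72) and mt-Atp8 (-4.54) had batch changes of like size. The last 3 were named after their values were seen. Batch 2 levels of these genes were near the floor, with mt-Atp6 in bleomycin 1 at 0.498 CPM, or about 3 counts. The difference between these and the nuclear subunits was not tested.

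Markers of several cell types differed between the batch 1 groups, where 17.5% of all genes tested were higher and 13.4% lower by edgeR. Of 8 macrophage markers 8 were higher, with sums of 452 to 902 CPM in bleomycin against 229 to 237 in saline, and of 8 ciliated cell markers 7 were lower (239.9 to 297 against 465 to 691 CPM). Bleomycin 8, titled as a control, had the macrophage sum of 902 CPM and a ciliated cell sum of 252 CPM, both outside the saline ranges. Alveolar type 2 markers (4 of 7), alveolar type 1 markers (4 of 7) and capillary markers (5 of 7) were lower. Higher were 2 of 5 red blood cell markers and 4 of the 7 genes listed for pericytes, Postn among them (0.50, adjusted p = 0.0122). Heart muscle, skeletal muscle and fat lists had 0 called by edgeR (1, 1 and 0 at an unadjusted p under 0.05), while DESeq2 called 1 heart gene higher and limma-voom 0. The part of these shifts in the members' levels was not tested.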

How the data were processed

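Total RNA was sequenced from 13 libraries with a stranded low-input kit, per the labels' protocols. The authors deposited raw counts for 54513 gene symbols. The submitters' processing notes list build mm39 and the tools featureCounts 2.0.3, STAR 2.7.10b, cutadapt 4.4 and DESeq2 1.42.1, with no role or order. How strands, annotation and reads that fit several copies were handled is not given in the sources used here. Among counts of 1 to 10, between 78.4% and 86.1% per library were even, and an alternative used halved counts. Intervals on counts cover counting error only. A second deposited table gives a normalised signal for 29723 symbols. Its value equals the count divided by a constant per library (to within 0.00896% for counts over 200) and served only for an alternative.

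Genes kept by filterByExpr over the batch and treatment groups (20468, all 84 members among them) were tested with edgeR 4.0.16 (R 4.3.3) after TMM scaling, in robust quasi-likelihood fits with treatment and batch as terms over all 13 libraries. The p-values were adjusted by Benjamini-Hochberg over all tested genes, with a threshold of 0.05. Alternatives used limma 3.58.1 (voom), DESeq2 1.42.0, other scalings and filters, halved counts, batch 1 alone, a replicate block and fits without each library. The biological coefficient of variation was 0.306. On simulated counts (19918 genes tested) the treatment test recovered 14.9%, 41.8% and 80.3% of genes changed 1.5-, 2- and 4-fold, with 5 false calls. Only 67, 67 and 66 genes were changed there, drawn at random from genes of all levels, whereas 30.9% of genes passed in the data. The adjusted threshold was thus stricter in the simulation, and these rates do not give the recovery for the members.

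Transcript lengths are from GENCODE M21 for 83 members, matched by symbol or, for 2 members, through a RefSeq synonym. They are those of the principal transcript, or of the longest one where none is marked as principal. The members and lists were chosen with earlier results of these data known. Named members are, per complex, the 4 with the lowest treatment p and the 2 most abundant per kilobase, then paralogue pairs, the c-ring genes and those called by batch. In each pathway or marker list up to 2 genes were taken, by lowest p or by abundance, and exceptions are marked in the text. Libraries of the same treatment were not duplicates (chi-square per degree of freedom 10.1 to 267 over 38 pairs).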

Additional observations from a re-analysis of the deposited data

Results flagged for a closer look

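Of 135 sets of values for members and sums in groups of 4 or 5 libraries, 14 held a library whose gap to the nearest other exceeded the 95% limit of Dixon's test, and chance flags about 1 in 20. Most were bleomycin 5 in batch 1. It stood at 66.2 CPM of Ndufb10 (others 38.5 to 42.5), 50.8 CPM of Cox6a2 (7.71 to 11.1), 16 CPM of Cox7a1 (1.79 to 2.36), 21 CPM of Cox8b (2.78 to 4.25) and 31.6 CPM of Atp5g1 (11.5 to 13.2). Its sums were also apart, at 4435 CPM for all members (3216 to 3265), 1274 CPM for complex I (944 to 961), 345 CPM for complex II (231 to 241) and 1663 CPM for complex V (1123 to 1179).

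In batch 2, bleomycin 2 stood apart with 409.7 CPM for the complex III sum (others 304 to 317) and 704 CPM for that of complex IV (568 to 585). Bleomycin 4 was low in Cox7a2l, at 43.1 CPM (53.5 to 55.0), and high in Atp5e, at 36.9 CPM (32.1 to 32.9). Bleomycin 8, whose title conflicts with its other labels, was low in Cox6a1, at 34.5 CPM (39.0 to 39.9).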

How the results depend on the processing

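The number of members called by treatment, 5, became 2 with no filter on low counts, 10 by DESeq2, 9 without the batch term, 9 with protein-coding genes only and 10 without bleomycin 5 and saline 4 (a choice made after seeing the data). With single libraries left out it ran from 0 (without bleomycin 6 or 8) to 12 (without bleomycin 5), with 3 without bleomycin 7 or saline 2 and 2 without saline 1. The number called by batch, 1, became 2 by DESeq2 and 0 by limma-voom, with bleomycin libraries only, with protein-coding genes only, with halved counts and without bleomycin 5 and saline 4, and with single libraries left out 3 (without bleomycin 8) or 0 (without bleomycin 2 to 7 or saline 1, 3 or 5). The number of all genes called by batch, 343, became 737 by DESeq2, 102 by limma-voom, 160 with bleomycin libraries only and 85 with protein-coding genes only, and 148 (without bleomycin 3) to 1093 (without bleomycin 8) with single libraries left out (534 without bleomycin 1, and 165, 183, 187 and 197 without bleomycin 2, 4, 6 and 7). With no filter on low counts, Atp5e (adjusted p = 0.0787), Ndufb5 (0.109) and Ndufa6 (0.118) did not pass, nor did Uqcrh without bleomycin 5 and saline 4 (0.0674). Over 974 pairs of a named gene and an alternative, 32 lost the threshold and 20 gained it. Signs changed in 70 pairs, with neither value past the threshold, and in 8 of these by 1 SE or more. The replicate numbers did not pair the libraries (same-number correlations -0.39 to 0.04, and in 0 of 5 pairs the highest with its own number), and the replicate block gave 4 members, of which 2 were among the 5. Depth limits Cox6c2, with 1 or 2 counts in each batch 2 library.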
